A study of Homo sapiens with 24 samples.

Results

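HT-29 is an established line of human colon adenocarcinoma cells. Wild-type cells (WT) and cells with a knockout of GPRC5A (KO) were compared without any active treatment: 3 WT and 3 KO libraries, from cells kept for 8 h in OMEM medium with 0.1% of the solvent DMSO, chosen by their column names and taken from a set of 24 libraries. The other 18 libraries hold 3 libraries of each genotype with the compound that the labels call 7FTA, with the cytokine TNFα, or with both. The labels give no other allele in either genotype, and they name neither the guide or edited exon nor the number of KO clones, so loss of GPRC5A and any other difference between the 2 cell populations cannot be told apart. Cells had been grown in multiwell plates to near confluence, and their poly(A) RNA was sequenced in single-end reads. Nothing in the labels tells if the replicates were separate cultures, and the p-values measure only the spread between these libraries. The comparison asks which RNAs differ between the genotypes before anything is added.

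GPRC5A is an orphan G protein-coupled receptor of class C, a family whose better known members sense glutamate, calcium or tastants. Unlike those, it has a short extracellular end, and its ligand is debated. Its gene was found through its induction by retinoic acid, and it is expressed by epithelia, those of lung and gut among them. The gut epithelium from which HT-29 derives renews itself from crypt stem cells under Wnt signals and sorts its progeny into absorptive cells and secretory cells (goblet, Paneth, tuft and enteroendocrine) through Notch signalling and the factor ATOH1. HT-29 cells can be pushed toward either fate in culture.

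Total counts were 19121484 to 26901257 in the WT and 18356545 to 23488229 in the KO libraries, and 19030 to 20204 genes had a count. Mitochondrially encoded RNA was 0.650% to 0.912% of the counts in WT and 0.616% to 0.749% in KO libraries. Levels are given as CPM (counts per library size, the size corrected by edgeR's TMM factors), in the order of replicates 1 to 3, and a CPM does not correct for gene length, so levels are compared between genotypes and not between genes. Fold changes are KO against WT with a standard error (SE) from edgeR's quasi-likelihood test, n = 3 libraries a genotype. A gene was called higher or lower when its p, adjusted by Benjamini and Hochberg over 14059 tested genes, was under 0.05. The libraries carried markers of colon epithelium. EPCAM, an epithelial adhesion protein, had 641, 632 and 634 CPM in WT and 670.5, 665 and 656 CPM in KO libraries, and the differentiation markers KRT20 (340.1 and 421 CPM) and LGALS4 (713 and 1119 CPM, WT and KO means) were abundant. The intestinal master factors were low: CDX2 had 2.27, 2.53 and 3.25 CPM in WT and CDX1 had 0.199, 0.105 and 0.187 CPM. Of 15 immune cell markers, PTPRC had 0 to 3 counts a library, and MS4A1, FCGR3A, NKG7 and KIT had 0 in all 6 libraries. The summed level of the 15 was carried by LYZ (1666 and 1514 CPM), which gut cells make too. Endothelial markers summed to 2.11 to 2.39 CPM in WT and 2.52 to 3.01 CPM in KO libraries, with CDH5 and KDR at 0; fibroblast and muscle markers to 2.53 to 3.14 and 2.44 to 2.96 CPM, with COL1A2 and COL3A1 at 0; neuron and glia markers to 0.318 to 0.374 and 0.0519 to 0.402 CPM; and markers of other epithelia, mainly GATA3 and PAX8, to 6.84 to 8.33 and 5.25 to 5.43 CPM. Of 11 heat shock genes, which respond to handling, 3 were higher in KO cells, HSPA1A and HSPA1B among them, and 6 lower, HSPH1 first; the part of handling in other results was not tested.

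GPRC5A itself (ENSG00000013588, chromosome 12, 12890782 to 12917937, plus strand, GRCh38) was reduced and not lost. The WT libraries had 202, 206 and 214 CPM and the KO libraries 67.3, 71.7 and 70.4 CPM, or 14689 and 4454 counts in all. Every KO library lay at about the same level, well below every WT library. The difference was -1.57 ± 0.04 on the log2 scale, 2.97-fold lower (adjusted p = 4.90e-35). The counts cover the gene as a whole, so neither the part of the RNA that remained nor its ability to make protein can be read from them. Of its 3 relatives, GPRC5C had 13.2, 14.0 and 15.0 CPM in WT and 15.4, 18.8 and 16.7 CPM in KO cells and was called higher by 0.27 ± 0.08, or 0.19 and not called without KO replicate 2. GPRC5B (0.383 and 0.183 CPM) was not called, and GPRC5D, with 0 to 3 counts a library, was not tested.

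The genotypes differed across much of the transcriptome, mostly by little. Of 14059 genes, 6763 (48.1%) were called, with 3374 (24.0%) up and 3389 (24.1%) down in the KO libraries. More, 7655 genes (54.4%), had 3 KO libraries that did not overlap the 3 WT libraries, so separation of the libraries alone marks no gene out here. The median fold among called genes was 1.27, and 1117 genes higher and 818 lower reached 1.5-fold. At least 2-fold were 554 genes higher and 415 lower (6.89% of genes tested), at least 4-fold 104 and 101, and at least 8-fold 25 and 18. Long non-coding RNAs leaned upward, with 196 of 1300 called higher and 107 lower, against 3112 and 3221 of 12019 protein-coding genes. Detection in 1 genotype only meant at least 1 CPM in its 3 libraries and at most 3 counts in sum in the other. No gene met this, but genes with clone, LINC, MIR, antisense, pseudogene or readthrough names were left out of the search. Of 4 equal bins of genes by level, the most abundant had the largest share of calls (60.8%) and the smallest share past 2-fold (1.17%). In the least abundant bin these shares were 28.4% and 17.9%.

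**Figure D1:**
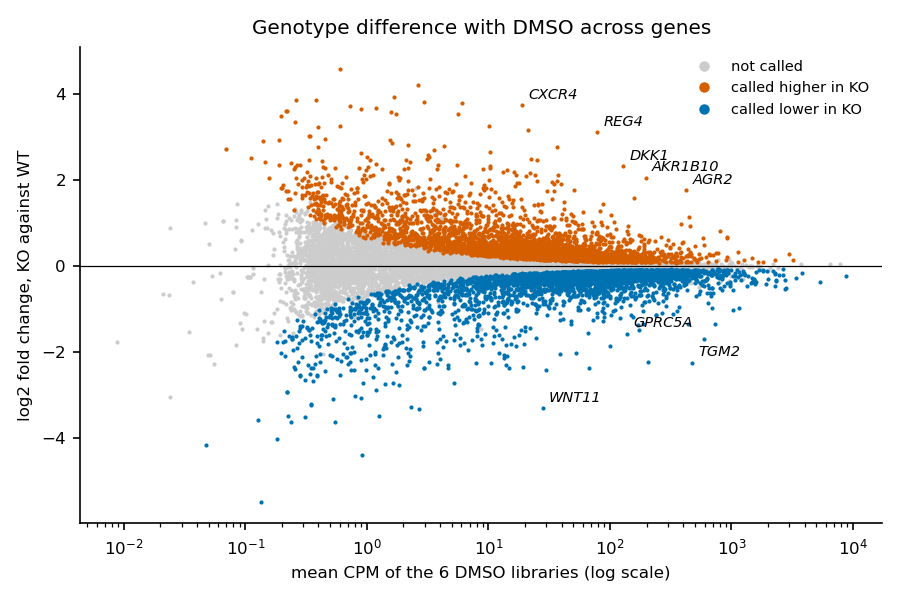
Log2 fold change of KO against WT cells with DMSO (vertical axis) against the mean CPM of the 6 libraries (horizontal log axis) for the 14059 tested genes, each a point, coloured by whether edgeR called it higher, lower or neither. Calls spread evenly to both sides, 3374 up and 3389 down, and the smallest called differences are at high levels.

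The largest increases, among genes whose log2 of the mean CPM reached 1 and whose libraries did not overlap, joined surface receptors, secreted gut proteins and signalling enzymes. NEBL, an actin-binding nebulin relative, had 0.159, 0.105 and 0.486 CPM in WT and 4.93, 5.03 and 5.20 CPM in KO libraries, 18.5-fold higher (4.21 ± 0.27). CXCR4, the receptor for the chemokine CXCL12 (chromosome 2, 136114349 to 136118165, minus strand), had 2.47, 2.69 and 2.73 CPM in WT and 37.2, 33.4 and 35.4 CPM in KO libraries, 13.4-fold higher (3.75 ± 0.13). SUCNR1, a receptor for succinate, went from 0.836, 0.791 and 1.01 to 10.1, 11.0 and 10.0 CPM (11.6-fold). Both receptors were low in every WT library, and the lack of overlap between genotypes was a condition of their selection. PLCB4, a phospholipase C that acts below Gq-coupled receptors, had 0.279, 0.369 and 0.523 CPM in WT and 4.52, 6.08 and 6.10 CPM in KO cells (14.0-fold). NUPR1, a small stress-induced nuclear protein, had 0.358, 0.791 and 1.27 CPM in WT libraries and 11.7, 11.4 and 11.1 CPM in KO libraries (13.8-fold); the WT values varied more between libraries than the KO values at this low level. ST6GAL1, which adds sialic acid to the ends of N-glycans, had 1.51, 2.27 and 2.06 and 18.4, 19.0 and 17.6 CPM (9.50-fold). The other 9 of the 15 largest increases were MUC5AC, REG4, CEACAM5 and CEACAM6, described with their families below, the gut calpain CAPN9 (6.99-fold), the transcription factor CREB5 (6.95-fold), the latent TGF-beta binding protein LTBP1 (6.43-fold), the transcriptional coregulator MN1 (5.96-fold) and the trypsinogen PRSS1 (5.78-fold), whose reads near-identical trypsinogen copies may share.

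The largest decreases were of another kind. WNT11, a secreted Wnt ligand (chromosome 11, 76186325 to 76210736, minus strand), had 48.8, 51.0 and 52.2 CPM in WT and 5.09, 5.03 and 5.28 CPM in KO libraries, 9.84-fold lower (-3.30 ± 0.08). TMEM158, a membrane protein induced by RAS signalling, had 5.02, 4.80 and 4.86 and 0.675, 0.302 and 0.488 CPM (9.96-fold lower), and NMU, a neuropeptide precursor, 5.10, 3.32 and 4.26 and 0.208, 0.503 and 0.569 CPM (9.62-fold lower). WNT11 was well expressed in WT cells, while the other pair was low in both genotypes. PADI2, which converts protein arginine to citrulline, had 50.6, 47.4 and 52.0 and 9.09, 9.45 and 9.68 CPM (5.31-fold lower). BLMH, a bleomycin-inactivating hydrolase, had 31.6, 33.1 and 31.7 and 5.76, 6.38 and 6.83 CPM (5.04-fold lower). Within each genotype both genes varied little between libraries. NNMT, which methylates nicotinamide, fell from 24.8, 26.6 and 23.0 to 4.36, 5.58 and 4.55 CPM (5.13-fold). Also among the 15 were the gap junction protein GJB6 (6.61-fold lower), the epithelial factor ELF5 (5.17-fold), TREML2 (5.16-fold), the protease inhibitor CST6 (5.16-fold), the scaffold proteins MAGI2 (4.93-fold) and TANC2 (4.92-fold) and the regulator of G protein signalling RGS17 (4.83-fold). GJB6 and RGS17 lie on chromosome stretches that were lower as a whole, given further on.

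By amount of RNA, the changes were in other genes. The largest gains in CPM were in FTH1, the ferritin heavy chain (2704 and 3288 CPM), AGR2, a disulfide isomerase of the secretory pathway (194 and 659), CD24, a mucin-like surface protein (585 and 1022), PYGB, a glycogen phosphorylase (707 and 1135), and LGALS4, a gut galectin (713 and 1119), each given as the WT and KO mean. The largest losses were in the keratins KRT8 (9382 and 7979) and KRT18 (6046 and 4651), the glycolytic enzyme PKM (3276 and 2250), the growth-related protein TPT1 (3314 and 2337) and the chaperone HSPH1 (1522 and 778). AGR2 stood apart from the other 9 by its fold: 191, 194 and 198 CPM in WT and 667, 647 and 662 CPM in KO libraries, 3.40-fold higher. KRT8 and KRT18 overlap on opposite strands, as do FTH1, PYGB and TPT1 with a neighbour each, and the strand setting of the counting is not given in the sources used here, so their reads may be shared.

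**Figure D2:**
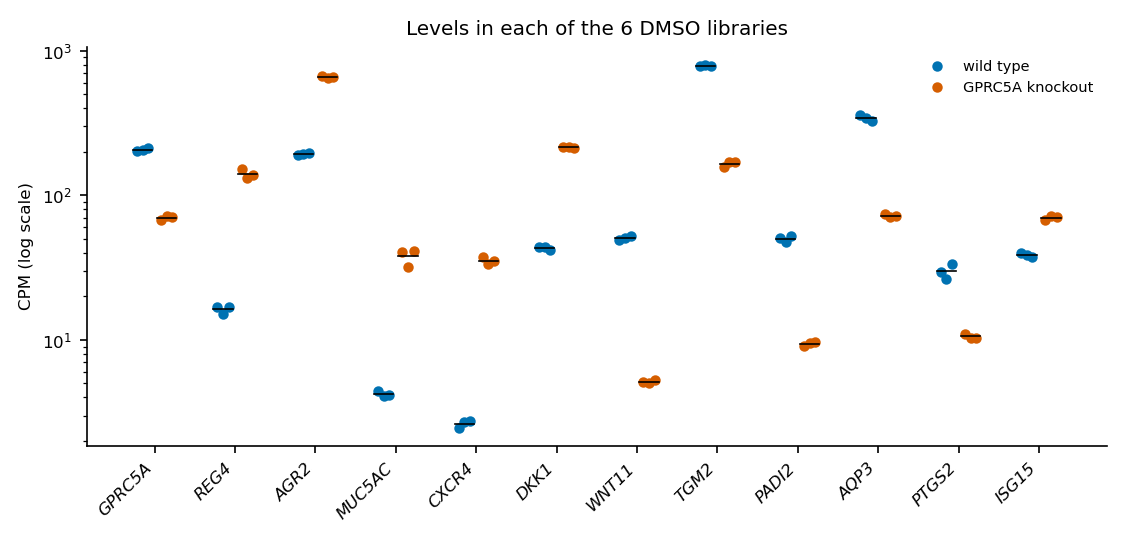
CPM on a log axis of 12 genes in each of the 6 DMSO libraries, blue for WT and orange for KO, with a black bar at the mean of 3 libraries. The 3 libraries of a genotype lie close together for each gene and the genotypes do not overlap, as for 54.4% of all tested genes. GPRC5A remains at 67.3 to 71.7 CPM in KO cells.

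Factors of the secretory lineage were higher in KO cells, while the products of its cells moved both ways. Of 19 tested factors of that lineage, 11 were called higher and 1 lower (median log2 difference 0.401, against 0.00642 over all tested genes; 24.0% of all genes were called higher). In bulk RNA, more cells of a type and more RNA per cell cannot be told apart. FOXA2, a pioneer factor of endoderm and goblet cells, had 3.70, 2.90 and 3.51 CPM in WT and 18.0, 17.6 and 16.1 CPM in KO libraries (5.03-fold higher, 2.33 ± 0.11). CREB3L1, a membrane-bound factor that expands the secretory pathway, had 44.3, 43.4 and 53.1 and 125, 127 and 129 CPM (2.70-fold), and KLF4, a factor of goblet cell maturation, 11.9, 11.3 and 11.0 and 27.7, 29.3 and 27.3 CPM (2.46-fold). The Notch ligand DLL4 (3.33-fold) and HES6, which opposes the Notch effector HES1 (2.09-fold), were higher too. ATOH1, the factor that commits cells to the lineage, was higher at a low level, 1.15, 1.79 and 1.38 against 4.31, 5.08 and 3.37 CPM. SOX9, a factor of crypt progenitor and Paneth cells, was the member called lower (104 and 79.0 CPM). HES1 itself had the same mean, 39.1 and 39.1 CPM, and XBP1 was not called. ATOH1, HES1 and XBP1 are named for their place in the lineage, after their values were seen.

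Of 17 tested products that such cells release, 8 were higher and 7 lower (median 0.25). REG4, a lectin of secretory gut cells (chromosome 1, 119794018 to 119811660, minus strand), had 16.8, 15.1 and 16.9 CPM in WT and 152, 132 and 138 CPM in KO libraries, 8.60-fold higher (3.10 ± 0.06). AGR3, the paralogue of AGR2, had 4.10, 3.96 and 4.07 and 15.4, 12.1 and 15.1 CPM (3.51-fold). SERPINA1, the elastase inhibitor alpha-1-antitrypsin, had 277, 275 and 293 and 602, 618 and 631 CPM (2.19-fold). The trefoil peptides, which protect the mucus layer, split: TFF3 had 7.01, 8.12 and 7.21 and 23.4, 17.4 and 17.6 CPM (2.62-fold higher) and TFF1 1.71 and 6.10 CPM on average (3.59-fold higher), while TFF2, named like TFF1 after its value was seen, had 3.58, 4.06 and 3.29 and 0.831, 0.553 and 0.935 CPM (4.60-fold lower). WFDC2, a protease inhibitor of mucosal fluids, fell from 21.2, 21.4 and 22.5 to 6.34, 5.98 and 6.10 CPM (3.54-fold). Of 10 tested mucins, 6 were higher and 1 lower (median 0.674). MUC5AC, a gel-forming mucin of stomach and airway that colon tumours can make (chromosome 11, 1157953 to 1201138, plus strand), had 4.46, 4.06 and 4.15 CPM in WT and 40.5, 31.8 and 41.4 CPM in KO libraries, 8.96-fold higher (3.16 ± 0.24). MUC2, the gel-forming mucin of colon goblet cells, rose less, from 4.78, 3.17 and 4.82 to 7.53, 7.64 and 7.76 CPM (1.77-fold), and the membrane mucins MUC13 (1.48-fold) and MUC3A (1.51-fold) also rose, while MUC20 fell (13.5 and 8.94 CPM). The 9 called of 21 tested chaperones of the endoplasmic reticulum that were higher had small changes, CRELD2 (1.54-fold), SDF2L1 (1.38-fold), HYOU1 (1.38-fold) and PDIA4 (1.23-fold) first, and ERN2, the stress sensor of mucus-secreting cells, had 6.71 and 12.2 CPM (1.80-fold).

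Enteroendocrine genes were mostly too low to test, 16 of 23. DDC, the decarboxylase that makes serotonin, dopamine and tryptamine, was the clear exception, with 9.36, 10.9 and 10.0 CPM in WT and 39.6, 39.7 and 39.8 CPM in KO libraries (3.95-fold higher, 1.98 ± 0.09). PAX4 was higher (0.398, 0.369 and 0.336 against 1.14, 1.21 and 1.26 CPM) and the hormone CCK lower (0.664 and 0.112 CPM), both near 1 CPM or less.

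Absorptive cell genes were also higher on balance, so the secretory genes were not alone. Of 13 tested, 10 were called higher and 2 lower (median 0.949). DPP4, a brush-border peptidase, had 22.0, 20.5 and 23.8 CPM in WT and 62.6, 60.9 and 63.2 CPM in KO libraries (2.80-fold higher). VIL1, which bundles actin in microvilli, had 128, 132 and 135 and 216, 214 and 218 CPM (1.64-fold), and CA2, a carbonic anhydrase, 2.75, 2.64 and 2.06 and 10.7, 10.4 and 10.4 CPM (4.25-fold). The CEACAM adhesion proteins, neighbours on chromosome 19, went opposite ways. CEACAM6 had 9.99, 9.76 and 8.52 and 59.9, 65.7 and 65.7 CPM (6.79-fold higher), and CEACAM5, the tumour marker CEA, 2.59, 2.16 and 3.66 and 19.0, 17.3 and 17.8 CPM (6.26-fold higher). CEACAM1 had 249.5, 254 and 256 CPM in WT and 91.5, 87.8 and 92.2 CPM in KO libraries (2.80-fold lower). The genes resemble each other in sequence, so some of their reads may be shared. Another 18 absorptive genes, SI and ALPI among them, were too low to test. Of the 14 tested colon epithelium markers, 9 were higher and 3 lower, with LGALS4 (1.57-fold), TSPAN8 (1.42-fold) and VIL1 higher and CDX2 (2.38-fold) lower.

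**Figure D3:**
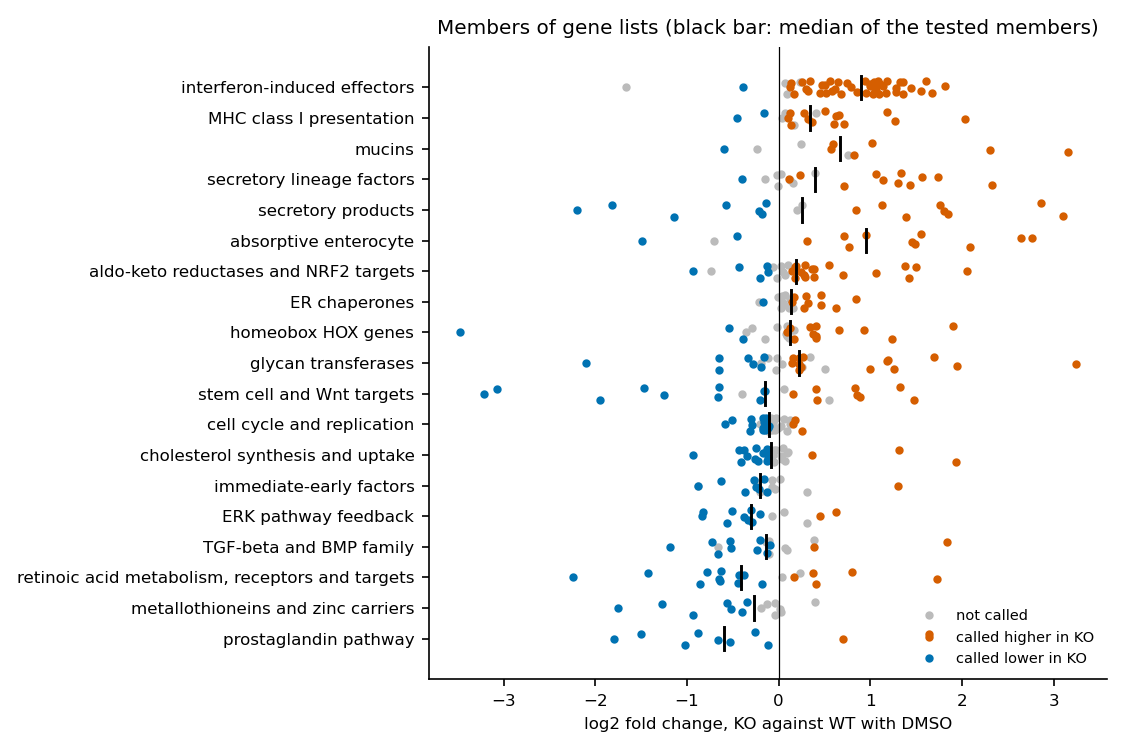
Log2 fold change of KO against WT cells with DMSO for the tested members of 19 gene lists, each point a gene, coloured by its call, with a black bar at the list's median. Interferon-induced effectors, mucins, secretory factors and absorptive genes sit mostly to the right of 0, while the prostaglandin, retinoic acid and ERK feedback genes sit mostly to the left.

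Wnt targets moved both ways, and several genes of crypt stem cells were lower. Among 21 tested stem cell genes and Wnt targets, 8 were higher and 10 lower (median -0.143; 24.1% of all genes were called lower). LGR5, the receptor for R-spondin that marks crypt stem cells, had 11.0, 10.0 and 11.7 CPM in WT and 2.75, 2.82 and 2.93 CPM in KO libraries (3.85-fold lower, -1.94 ± 0.14). ASCL2, a factor of these cells, had 5.02, 5.27 and 6.99 and 2.08, 1.81 and 2.36 CPM (2.76-fold lower). Their markers LGR6 (0.995, 0.738 and 1.12 against 0, 0.151 and 0.163 CPM, 69 and 7 counts in all) and SMOC2 (0.478, 0.580 and 0.822 against 0.0519, 0.101 and 0.0406 CPM, 45 and 4 counts) were called lower at very low levels, and SMOC2 lies in the lower stretch of chromosome 6. ASCL2, LGR6 and SMOC2 were named after their values were seen. The related receptor LGR4 had 78.1, 78.9 and 82.5 and 144, 143 and 148 CPM (1.81-fold higher). TCF7 (92.4 and 58.8 CPM) and the ligase ZNRF3 (96.8 and 61.2 CPM) were lower, and the receptor EPHB3 (8.33 and 23.1 CPM) and the adhesion receptor CD44 (317 and 421 CPM) were higher. NKD1 (2.5-fold), SP5 (1.9-fold), NOTUM (1.8-fold), PROM1 (1.3-fold) and RNF43 (1.1-fold) complete the 8 called higher, against 10 called lower. AXIN2, a widely used readout of Wnt signalling and named after its value was seen, fell only 1.10-fold, from 47.2, 48.7 and 53.3 to 43.4, 45.6 and 46.1 CPM, and was not called without KO replicate 1 (-0.12) or without WT replicate 3 (-0.09). Of the secreted ligands and antagonists, most were too low to test (15 of 22). Besides WNT11, WNT10A was lower, 17.9, 18.7 and 18.6 against 6.13, 5.78 and 6.38 CPM (3.01-fold). DKK1, a secreted antagonist of Wnt coreceptors, had 43.7, 43.6 and 42.0 CPM in WT and 215, 216 and 214 CPM in KO libraries (4.99-fold higher, 2.32 ± 0.05).

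Retinoic acid genes bear on GPRC5A through its own induction by this vitamin A product, and they were lower on balance. Of 18 tested genes of its metabolism, receptors and targets, 11 were lower and 5 higher (median -0.404). TGM2, a protein cross-linking enzyme and a standard retinoid target (chromosome 20, 38127387 to 38166578, minus strand), had 778, 795 and 786 CPM in WT and 157, 171 and 169.7 CPM in KO libraries, 4.74-fold lower (-2.25 ± 0.04). RARRES1, named for its response to retinoic acid, had 29.7, 28.9 and 28.7 and 12.1, 9.75 and 10.8 CPM (2.68-fold lower). CRABP2, which carries retinoic acid to the nucleus, had 475, 469 and 462 and 351, 349.8 and 341 CPM (1.35-fold lower). The receptors RARG (1.54-fold) and RXRA (1.56-fold) and the synthesizing enzyme ALDH1A1 (802, 805 and 826 and 532, 525 and 508 CPM, 1.55-fold) were lower as well. RXRA and ALDH1A1 lie on chromosome 9, which was lower along most of its length. Away from chromosomes 6, 8, 9, 13 and 19, 9 of 13 genes of the list were lower and 3 higher. DHRS9, an oxidoreductase of retinol named after its value was seen, went the other way, 2.75, 1.95 and 2.32 to 6.60, 7.44 and 9.35 CPM (3.32-fold higher).

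Interferon-induced genes were higher nearly throughout. All 48 listed effectors were tested: 43 were called higher, 1 lower and 4 neither, with a median of 0.901, and 21 of them were at least 2-fold higher. Their summed level was 1500 to 1530 CPM in WT and 2040 to 2150 CPM in KO libraries. Type I and III interferons bring STAT2 and IRF9 to a short DNA element, the interferon-stimulated response element, whose core repeats GAAA. For a view of it, the 170 bases before the RefSeq start of 5 of these genes are shown, 5′ to 3′ on the strand of the gene (GRCh38.p14). Capitals mark each match to GAAA, any 2 bases and GAAA again on either strand (read from the other strand, TTTC, any 2 bases and TTTC); matches may overlap. The pattern fixes the spacing, so GAAA repeated at a shorter spacing, as near the end of the OAS1 sequence, is not counted. The first 4 were chosen for their strong or well-known response, the last because it rose and holds no match to this pattern:
ISG20, chr15:88638846-88639015, plus strand: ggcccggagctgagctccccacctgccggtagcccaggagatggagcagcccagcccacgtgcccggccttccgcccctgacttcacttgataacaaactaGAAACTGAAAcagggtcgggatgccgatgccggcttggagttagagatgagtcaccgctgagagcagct
IFIT1, chr10:89392453-89392622, plus strand: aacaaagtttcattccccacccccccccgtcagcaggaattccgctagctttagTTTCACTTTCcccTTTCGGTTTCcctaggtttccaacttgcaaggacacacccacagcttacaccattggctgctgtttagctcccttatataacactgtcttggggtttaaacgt
ISG15, chr1:1013327-1013496, plus strand: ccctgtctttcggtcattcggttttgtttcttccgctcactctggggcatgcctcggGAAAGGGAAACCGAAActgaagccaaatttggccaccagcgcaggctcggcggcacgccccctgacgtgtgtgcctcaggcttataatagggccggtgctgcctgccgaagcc
IFI6, chr1:27672193-27672362, minus strand: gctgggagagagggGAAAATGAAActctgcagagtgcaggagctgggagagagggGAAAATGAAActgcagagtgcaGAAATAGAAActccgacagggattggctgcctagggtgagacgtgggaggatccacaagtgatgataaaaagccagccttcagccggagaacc
OAS1, chr12:112906792-112906961, plus strand: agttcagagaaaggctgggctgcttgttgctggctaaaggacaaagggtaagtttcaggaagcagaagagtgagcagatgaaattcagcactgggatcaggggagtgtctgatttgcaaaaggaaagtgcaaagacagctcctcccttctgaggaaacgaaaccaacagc

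The match in ISG20 begins 69 bases before the start, the first of 2 in IFIT1 begins 116 bases before it, the first of 2 overlapping matches in ISG15 begins 113 bases before it, and IFI6 has 3 matches, the first 156 bases before it. Of the 43 effectors called higher, 33 had a promoter in the RefSeq table, and 25 of these (75.8%) held a match in the 300 bases from 250 before to 50 after the start. Of all 35116 promoters of that length 1255 (3.57%) did. Among the 5 effectors not called higher, 4 had a promoter and 3 held a match, so the letters do not separate the genes that rose from those that did not. Over all genes, 3.48% of promoters of genes called higher, 2.57% of those called lower and 2.44% of the rest held a match. A match is a run of letters and not a site at which binding was measured.

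ISG20, an RNA exonuclease, had 4.22, 4.11 and 3.77 CPM in WT and 12.8, 13.4 and 12.5 CPM in KO libraries (3.19-fold higher, 1.67 ± 0.11). IFIT1, which binds foreign RNA caps and is named with IFI6 and OAS1 for the sequences above, had 7.88, 6.96 and 7.36 and 24.0, 23.9 and 18.0 CPM (2.94-fold). ISG15, a ubiquitin-like modifier, had 40.1, 38.8 and 37.3 and 67.2, 72.1 and 71.0 CPM (1.81-fold), IFI6 14.0, 13.7 and 12.0 and 29.9, 29.8 and 25.0 CPM (2.14-fold), and OAS1, an RNA-activated synthetase, 22.3, 21.1 and 21.6 and 44.1, 49.4 and 47.0 CPM (2.16-fold). In each of the 5 the lowest KO library exceeded the highest WT library, but 54.4% of all tested genes had libraries that did not overlap. OASL (2.20-fold), PARP9 (1.93-fold), the RNA sensor IFIH1 (1.93-fold) and IFIT3 (2.12-fold) were among the clearest of the others. IFITM2, an antiviral membrane protein, was the 1 gene called lower, 31.4, 32.2 and 33.3 against 26.2, 23.7 and 24.5 CPM. Its near-identical neighbour IFITM3 was called higher (15.3 and 23.1 CPM), and their reads may be shared. IFI35, EPSTI1, HERC5 and RTP4 were not called. The interferon genes IFNB1, IFNL1, IFNL2, IFNL3 and IFNA1 had too few counts to test. Of the 16 tested receptors and factors of the pathway, 6 were higher and 4 lower: STAT2 (6.58 and 13.1 CPM) and IRF7 (25.9 and 41.2 CPM) rose with the kinases JAK1 and TYK2, and IRF3 fell (145 and 109.5 CPM). Antigen presentation by MHC class I had 14 of 20 genes higher and 2 lower (median 0.345). TAP1, a peptide transporter, had 8.56, 7.23 and 8.07 and 16.8, 20.0 and 17.8 CPM (2.27-fold higher), and HLA-C 72.5, 73.7 and 67.0 and 113, 125 and 112 CPM (1.64-fold higher), with the caution that HLA genes share reads. NLRC5, the activator of these genes, named after its value was seen, had 0.715 and 3.02 CPM.

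In growth factor signalling, several ligands were higher and most feedback genes lower. Of 9 tested EGF receptors and ligands, 5 were higher and 2 lower: the ligands AREG (51.4, 47.0 and 44.2 against 77.5, 75.2 and 77.8 CPM), EREG (83.2 and 109.9 CPM) and EGF (0.417 and 1.85 CPM) and the receptors ERBB2 and ERBB3 rose, and the ligand TGFA (109 and 87.2 CPM) and the receptor EGFR fell. EGFR had 165, 148 and 183 CPM in WT and 128, 131 and 138 CPM in KO libraries (-0.32 ± 0.10) and was not called without KO replicate 1 (-0.30) or without WT replicate 3 (-0.24). The ligands HBEGF (0.05 ± 0.10) and BTC (0.07 ± 0.12) were not called. Genes that the kinase ERK induces to limit itself were lower in 9 of 14 cases and higher in 2 (median -0.296). PHLDA1 had 278, 265 and 262 CPM in WT and 156, 149 and 152 CPM in KO libraries (1.76-fold lower). IER3 had 79.9, 80.0 and 74.9 and 42.4, 44.8 and 44.1 CPM (1.79-fold lower). The phosphatases DUSP4 (1.48-fold) and DUSP6 (1.30-fold) were lower, and the phosphatase DUSP5 (1.37-fold) was higher. DUSP4 lies on chromosome 8, which had a median of -0.241, and of -0.566 to -0.454 in its stretches of 10 Mb up to 50 Mb. Among the 10 genes of this list away from the 5 shifted chromosomes, 6 were lower and 2 higher. ETV5, a factor that usually rises with ERK activity, was higher (20.7 and 31.9 CPM). Of 17 immediate-early factors, 8 were lower, EGR1 (1.55-fold) and FOSB (1.84-fold) among them, and KLF4 alone was higher. NF-kB factors and inhibitors were lower in 6 of 15 cases and higher in 2, with RELB (1.67-fold lower) and NFKB1 (1.32-fold lower) first. RELB lies on chromosome 19 beyond 20 Mb, and away from the 5 shifted chromosomes 3 of 10 were lower and 2 higher (median -0.00467). Of 14 tested chemokines, 3 were lower, 1 higher and 10 not called (median -0.0641). CXCL8, the neutrophil chemokine, had 26.4, 23.1 and 20.2 CPM in WT and 10.1, 12.0 and 11.4 CPM in KO libraries (2.07-fold lower). Of the TGF-beta and BMP family, 9 of 18 were lower and 2 higher, TGFB1 foremost with 119, 129 and 126 and 53.9, 54.8 and 55.8 CPM (2.27-fold lower). TGFB1 lies on the part of chromosome 19 beyond 20 Mb, where medians were below 0 throughout.

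Of 24 prostaglandin genes, 14 were too low to test, the PTGER receptors among them, and of the 10 tested 8 were lower and 2 higher (median -0.594). PTGS2 (cyclooxygenase 2), the inducible enzyme of prostaglandin synthesis, had 29.4, 26.6 and 33.3 CPM in WT and 11.0, 10.3 and 10.4 CPM in KO libraries (2.84-fold lower, -1.50 ± 0.07). PLA2G4A, which frees its substrate (53.4 and 36.9 CPM), and ABCC4, which exports the product (143, 148 and 153 against 70.4, 74.8 and 72.8 CPM), were lower, and so was HPGD, which degrades it (31.1 and 17.0 CPM). TBXAS1, thromboxane synthase, rose from 7.68, 7.28 and 6.35 to 21.8, 21.4 and 22.9 CPM (3.11-fold). Away from the 5 shifted chromosomes, 4 of 6 were lower and 2 higher.

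Among 40 other tested G protein-coupled receptors, 13 were higher and 10 lower, close to the shares of all genes. Besides CXCR4 and SUCNR1, F2R, the thrombin receptor, stood out with 137, 136 and 145 CPM in WT and 61.7, 65.2 and 62.4 CPM in KO libraries (2.21-fold lower), and FFAR4, a receptor for long-chain fatty acids, was higher (65.8 and 83.8 CPM). Of 36 transducers below such receptors, 10 were higher and 9 lower. GNAI1, an inhibitory G protein subunit, had 14.0, 18.5 and 17.9 and 47.0, 49.7 and 51.3 CPM (2.96-fold higher), PRKACB, a catalytic subunit of protein kinase A, 4.90, 5.17 and 6.73 and 14.7, 12.1 and 11.2 CPM (2.23-fold higher), and ADCY7 1.22 and 3.09 CPM (2.52-fold higher). RGS14 was lower (16.7 and 10.9 CPM).

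Surface, junction and matrix genes changed singly. AQP3, a water and glycerol channel (chromosome 9, 33441154 to 33447633, minus strand), had 357, 341 and 324 CPM in WT and 74.2, 70.4 and 72.5 CPM in KO libraries (4.71-fold lower, -2.23 ± 0.08), far beyond the median of -0.184 of its chromosome. The chloride-loading transporter SLC12A2 had 257, 246 and 276 and 520.1, 487 and 517 CPM (1.96-fold higher) and ATP1B1, a sodium pump subunit, 301, 311 and 316 and 602, 602 and 579 CPM (1.92-fold higher), so that of 22 colon transporters 9 were higher and 10 lower. CLDN2, which forms cation pores in leaky tight junctions, had 332, 309 and 343 and 142, 149 and 155 CPM (2.21-fold lower), and the collagen-binding integrin chain ITGA2 173, 151 and 179.5 and 69.9, 72.5 and 75.0 CPM (2.32-fold lower). ITGB4, the hemidesmosome chain, was higher (319.8 and 461 CPM), as were the laminin chain LAMB1 (1.88-fold) and the adhesion proteins ALCAM (2.68-fold) and CDH3 (3.54-fold). KRT13 had 63.4, 62.9 and 61.1 and 14.8, 15.4 and 15.0 CPM (4.14-fold lower). The secreted kallikreins KLK6 (1066, 1049 and 1046 against 388, 425 and 436 CPM) and KLK10 (255, 258 and 242 against 118, 127 and 122 CPM) were 2.53-fold and 2.06-fold lower, while the matrix protease MMP7 was higher (136 and 222 CPM). Among ligands for immune cells, CD55 (65.9, 60.8 and 60.7 against 150, 140.3 and 139.7 CPM) and HHLA2 (4.16 and 14.4 CPM) were higher, and NT5E, which makes adenosine, was lower (144, 144 and 142 against 69.2, 71.7 and 68.8 CPM). Of 29 glycan transferases, 14 were higher and 7 lower, ST6GALNAC1 (3.23-fold) and FUT8 (1.99-fold) next to ST6GAL1. HOX genes were higher in 12 of 25 cases and lower in 3, with HOXC4 (3.73-fold higher) and HOXD13 (11.1-fold lower) the farthest out, both under 10 CPM.

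Metabolic lists moved less. Aldo-keto reductases and other targets of the factor NRF2 were higher in 18 of 30 cases and lower in 5 (median 0.186). AKR1B10, which reduces retinal and other aldehydes, had 77.7, 78.5 and 74.0 CPM in WT and 314, 327 and 317 CPM in KO libraries (4.16-fold higher, 2.06 ± 0.07), and AKR7A3 28.4, 28.6 and 27.9 and 60.6, 57.6 and 59.0 CPM (2.09-fold higher). AKR1C1 (2.67-fold) and AKR1C2 (2.82-fold) were higher too, but near-identical, so their split is uncertain. NQO1, the usual NRF2 readout, named after its value was seen, was not called (720.1 and 689 CPM). Cholesterol genes were lower in 13 of 26 cases and higher in 3, most by little, with FDFT1 (1.91-fold lower) on chromosome 8 first. Genes of hypoxia and glycolysis were higher in 14 of 30 cases and lower in 6, EPAS1 (2.00-fold) and NDRG1 (2.66-fold) among the former and PKM among the latter. Cell cycle genes were lower in 14 of 35 cases and higher in 3, none by 2-fold, where 24.1% of all genes were lower. Off the 5 shifted chromosomes, 8 of 27 were lower and 3 higher (median -0.078). CDK6 (1.49-fold) and CDKN2A (1.42-fold) fell most clearly. Respiratory chain genes encoded in the nucleus were called in 6 of 26 cases, well under the 48.1% of all genes. Of 34 tested regulators of apoptosis and pyroptosis, 9 were higher and 12 lower. Away from the 5 shifted chromosomes, 9 of 25 were higher and 6 lower. The death receptor genes TNFRSF10A (1.52-fold), TNFRSF10B (1.62-fold) and FAS (2.35-fold) were lower. The first pair are neighbours on chromosome 8, which had a median of -0.241 and was lower still up to 50 Mb (-0.566 to -0.454). Of 14 metallothionein and zinc carrier genes, 7 were lower and the other 7 not called, SLC39A8 (1.43-fold) and SLC39A14 (1.32-fold) among the former.

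The remaining lists were mixed. Amino-acid stress genes of the factor ATF4 were higher in 8 of 24 cases and lower in 11. Apart from NUPR1, the serine and glycine enzyme SHMT2 (1.51-fold) and the lipoprotein receptor VLDLR (2.15-fold) were higher, and the amino acid carrier SLC7A5 (621, 669 and 676 against 425, 455 and 441 CPM) and the factor CEBPB (1.68-fold) were lower. Aldehyde dehydrogenases were higher in 5 of 16 cases and lower in 8. ALDH1L1, a folate enzyme, had 15.2, 13.4 and 13.0 CPM in WT and 3.32, 4.07 and 4.15 CPM in KO libraries (3.59-fold lower), and ALDH3A2, which oxidizes fatty aldehydes, was higher (147 and 194 CPM). The aryl hydrocarbon receptor AHR, a sensor of indoles and pollutants, was lower (44.4, 47.0 and 50.7 against 37.5, 36.1 and 39.4 CPM), and of the 11 tested genes of its list 3 were higher and 4 lower. UGT1A6 (2.35-fold higher) and UGT1A1 (1.31-fold lower) share exons in 1 locus, so their split is uncertain. Efflux transporters were 4 higher and 4 lower of 11, ABCC5 (1.71-fold) among the former and ABCC4 the clearest of the latter. Fatty acid genes were lower in 10 of 22 cases and higher in 6, led by the desaturase SCD (2578, 2583 and 2757 against 1886, 1905 and 1975 CPM, 1.37-fold lower). Targets of p53 were 7 higher and 9 lower of 25, PLK2 (1.38-fold higher) and PLK3 (1.67-fold lower) on opposite sides; HT-29 cells are known to carry a mutant p53. Integrin chains were lower in 6 of 14 cases and higher in 2, claudins and tight junction genes higher in 7 of 18 and lower in 4, with CLDN1 (1.44-fold) and CLDN12 (1.61-fold) higher. Keratins and desmosome genes were higher in 10 of 23 cases and lower in 6, and the matrix genes FBN2 (1.43 and 0.178 CPM) and LOXL4 (18.0, 17.4 and 15.7 against 3.95, 5.33 and 5.28 CPM, 3.47-fold lower) fell while CCN2 rose (3.41 and 7.00 CPM). Of 11 tested genes of STAT3 and cytokine signalling, 3 were higher and 2 lower. The receptor chains IL6R (2.75 and 6.70 CPM) and IL22RA1 (24.1 and 34.9 CPM) were higher. The receptor chain IL6ST (1.12-fold) and the inhibitor SOCS2 (1.93-fold) were lower. The cancer-testis genes MAGEA3 (3.52-fold) and MAGEA6 (2.75-fold), near-identical neighbours, were lower, and 25 of the 28 on that list were too low to test.

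Several chromosomes were lower along much of their length or in long stretches. On chromosome 13, 161 of 248 tested genes (64.9%) were called lower and 14 (5.65%) higher, with a median of -0.452. The shift was deepest near the centromere, -0.917 over 46 genes that start between 20 and 30 Mb and -0.764 over 22 genes between 30 and 40 Mb, and CDX2, GJB6, SLC7A1 (624, 611 and 654 against 238, 249.8 and 253 CPM) and HSPH1 lie there. On chromosome 8, 51.7% of 472 genes were lower and 10.8% higher (median -0.241). Its stretches of 10 Mb had medians of -0.566 to -0.454 up to 50 Mb and of -0.324 to 0.0687 beyond. On chromosome 9, 44.9% of 555 genes were lower and 10.8% higher (-0.184), and on chromosome 19, 38.3% of 943 lower and 16.3% higher (-0.118). Chromosome 19 was not lower along its whole length: its stretches from 0 to 10 Mb (193 genes) and from 10 to 20 Mb (208 genes) had medians of 0.0196 and 0.0651, and those beyond 20 Mb medians of -0.289 to -0.167. Chromosome 6 had medians of -0.045 to 0.226 in the stretches of 10 Mb up to 140 Mb, and lower ones near its long-arm end: -0.393 from 150 to 160 Mb, where 28 of 42 genes were lower and 1 higher, and -0.484 from 160 to 170 Mb, where 10 of 21 were lower and 1 higher. All other chromosomes of the nucleus had medians between -0.0285 and 0.0679. Off these 5 chromosomes, 26.2% of 11106 genes were higher and 19.9% lower. Of the interferon effectors 41 of 45 were higher there and 1 lower, of the secretory factors 7 of 13 and 1, of the mucins 5 of 9 and 1 and of the absorptive genes 6 of 8 and 1. Other lists changed their balance. Aldehyde dehydrogenases went from 5 higher and 8 lower to 5 higher and 4 lower, targets of p53 from 7 and 9 to 5 and 4, ATF4 genes from 8 and 11 to 7 and 7, and stem cell genes and Wnt targets from 8 and 10 to 8 and 8. Checkpoint ligands went from 8 higher and 6 lower of 21 to 7 higher and 1 lower of 10. MHC class I genes went from 14 of 20 higher to 5 of 9, because the HLA genes, TAP1 and TAP2 lie on chromosome 6. Chromosomes 6 and 19 were left out whole, with their stretches that were not lower. Chromosome 6 had a median of 0.0344 over 735 genes. The smaller MHC class I count came from leaving these genes out, and an effect of a regional shift on them was not tested.

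**Figure D4:**
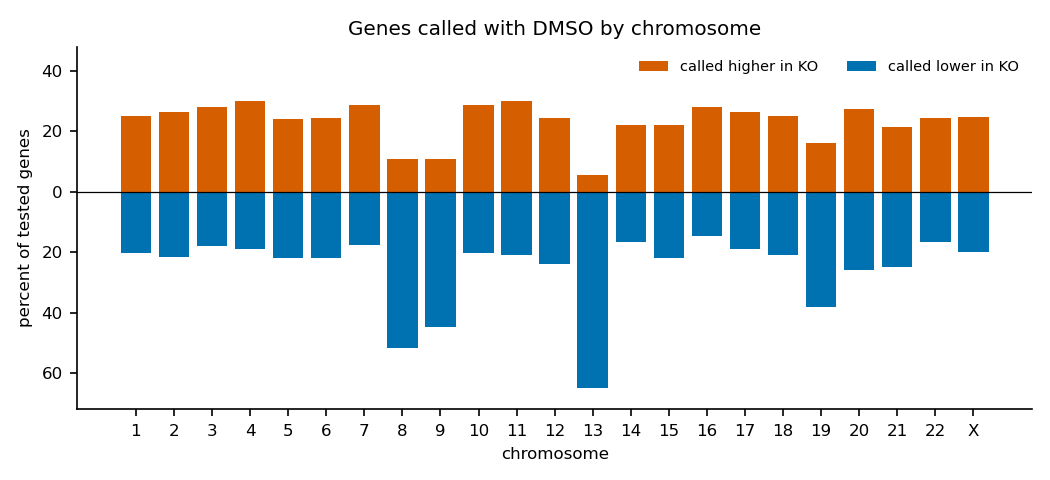
Percent of the tested genes of each chromosome called higher (orange, upward) or lower (blue, downward) in KO cells with DMSO. Chromosomes 8, 9, 13 and 19 have far longer lower bars than upper ones, up to 64.9% lower on chromosome 13.

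The same genotype difference was measured in the 18 libraries with treatment, none of which enters the DMSO contrast, although they share its estimate of spread and the same cell populations. Of the 3374 genes higher with DMSO, 2801 (83.0%) were called higher with 7FTA and 1 lower, where 24.6% of all genes were called higher. Of the 3389 lower ones, 2921 (86.2%) were lower, where 24.9% of all genes were lower. With TNFα the shares were 78.8% and 79.8% (all genes 25.5% and 25.1%), with 15 and 14 genes called the other way, and with both agents 79.7% and 82.1% (all genes 25.8% and 26.1%), with 15 and 12. All 15 largest increases and all 15 largest decreases were called the same way in each of the 3 treatments; with 7FTA the increases ran from 2.43 to 4.06 on the log2 scale and the decreases from -3.30 to -2.03. A difference between the genotype effects with DMSO and with 7FTA was called for 0 genes by edgeR (495 at an unadjusted p under 0.05), against 499 genes for TNFα and 417 for both agents. None of the 30 genes was among those. GPRC5A was lower by 1.66 with 7FTA, 1.66 with TNFα and 1.64 with both on the log2 scale. By list, interferon effectors were higher in 42 of 48 cases with 7FTA (median 0.872), secretory factors in 12 of 19, mucins in 7 of 10 and absorptive genes in 10 of 13, and prostaglandin genes were lower in 8 of 10, retinoic acid genes in 11 of 18 and ERK feedback genes in 9 of 14. Cell cycle genes were lower in 21 of 35 cases with 7FTA, where 14 were with DMSO; that difference was not tested for the list.

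**Figure D5:**
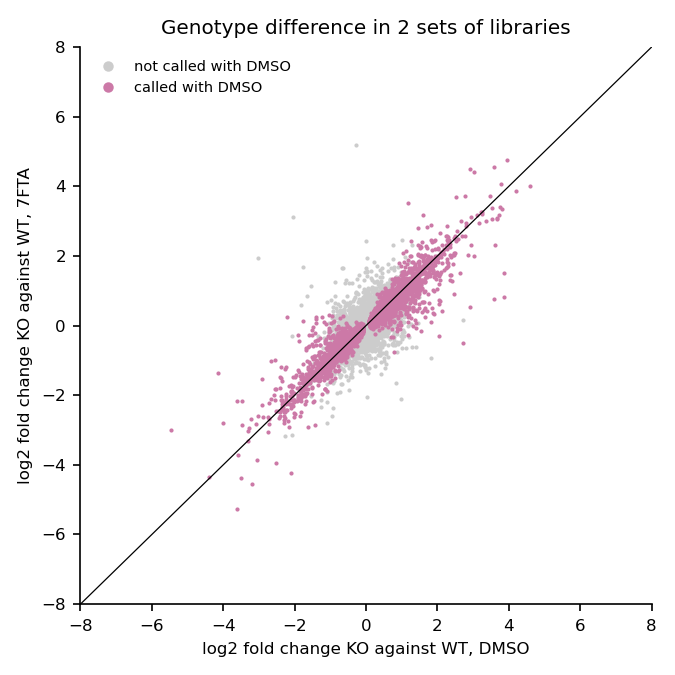
Log2 fold change of KO against WT cells with DMSO (horizontal) and with 7FTA (vertical), each point a tested gene, with the line of equality. The points called with DMSO follow the line, and 1 of the 6763 was called the other way with 7FTA.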

How the data were processed

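Gene counts were deposited by the authors as 1 table of whole numbers, 60623 genes by 24 libraries, and used as deposited. The build GRCh38 and the tools featureCounts 1.6.4, STAR 2.6.1d and DESeq2 1.20.0 stand without roles in the submitters' processing notes; strand setting and annotation release are not given in the sources used here. Groups came from the sample titles, and gene positions from GENCODE 29 (GRCh38) by gene identifier (58516 of 60623). In R 4.3.3, edgeR 4.0.16 fitted 1 mean per group to all 24 libraries (filterByExpr, 14059 genes; TMM; robust glmQLFit; two-sided quasi-likelihood F test; Benjamini-Hochberg adjustment over all tested genes). The SE was taken as the size of the log2 fold change over the root of F. The biological coefficient of variation was 4.06%. On simulated data for this comparison with 14059 genes, 84% of 100 genes shifted by 0.5 and 96% of 100 shifted by 1 (log2) were recovered, with 3.74% of calls false. The shifted genes all had a mean above 1 CPM. A change as broad as that in the data, with 48.1% of genes called, was not simulated. No 2 libraries of a group agreed within sampling noise.

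The members and the 55 gene lists (1318 of 1319 entries matched) were chosen with earlier results of these data known. Named genes are GPRC5A, the 15 largest changes each way among called genes with a mean log2 CPM of at least 1 (taken as the log2 of the mean CPM of the 6 libraries) and no overlap between genotypes, the 5 largest CPM changes each way, and up to 6 members of smallest p in each list; a few named by this rule are not reported here. Genes with clone, LINC, MIR, antisense, pseudogene or readthrough names were left out of these rankings of largest changes. Lists are described by counts and medians without a test. Alternatives were a fit on the 6 DMSO libraries, RLE scaling, DESeq2 1.42.0, other count filters, a replicate block, each library left out, 5 chromosomes left out and a test against a 1.5-fold change. Promoters are RefSeq sequences (GRCh38.p14).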

Additional observations from a re-analysis of the deposited data

How the results depend on the processing

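Tested against a fold of 1.5 in place of no change, 904 genes were called, 497 higher and 407 lower, because that test asks for a larger difference. With at least 50 counts in 3 DMSO libraries, 464 of the called genes differed by at least 2-fold in place of 969, with 11097 genes tested. Deviations from the group mean correlated weakly between WT and KO libraries of the same replicate number (0.0307 to 0.0364). Libraries of unlike number were not compared in this way. The fit with the replicate block called 7033 genes, 3509 higher and 3524 lower. DESeq2 called 6390, the 6-library fit 6707, RLE scaling 6766, no count filter 6480 of 30061 and the fit without chromosomes 6, 8, 9, 13 and 19 5169 of 11158. Leaving out 1 library gave 6106 to 6274 calls. No called gene among the 638 list members and named genes changed direction under these settings. The result was weaker for 456 of these genes in the test against a fold of 1.5. It was weaker for 37 to 54 with 1 library left out and for 21 with DESeq2. GPRC5A was called lower under all of these settings. Below about 1 CPM, counting error limits what could be called.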
